A study of Mus musculus with 24 samples.

Results

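Constant distal regions were stretches of the mouse autosomes that carried H3K27ac, an acetyl mark on histone H3, in every group of the study and that lay away from transcription starts. Peaks of all 8 deposited peak lists were merged wherever they shared 1 bp or more, which gave 246108 merged autosomal regions from 462829 peaks. A merged region was kept when it held a peak of every list and when its nearest edge was over 1 kb from every curated RefSeq transcription start of mm10. The rule kept 723 regions, 0.318% of the 227568 distal regions, while 3497 other regions in all 8 lists touched a start or lay within 1 kb of one and are called constant promoters here.

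H3K27ac is deposited by the acetyltransferases p300 and CBP and is found at active promoters and active enhancers, where it separates enhancers in use from those that are only primed. In a muscle fiber, enhancers are bound by MEF2 proteins, by myogenic basic helix-loop-helix factors such as MyoD, and by Six-family and TEAD factors. Glucocorticoids act through the glucocorticoid receptor (GR), a nuclear receptor that binds DNA at palindromic sites and recruits coactivators.

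All 8 groups were C57BL/6J mice (C57BL/6 in the labels), 10 weeks of age at treatment onset. Vehicle-treated females and males received DMSO in PBS, and weekly prednisone–treated females and males received 1 mg/kg of prednisone i.p. on 1 day of each week, with 5 prednisone injections in all. The general methods give vehicle injections on the other days. The scheme for these groups has bars for no injection, and its caption does not say which days they cover. Weekly treated mice were sampled 4, 6 or 8 days after the last prednisone injection. ChIP-Seq was performed on quadriceps myofibers isolated with collagenase II, with 2 H3K27ac libraries and 1 input library for each group (16 and 8 in all).

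The deposited data hold 1 peak list per group, so the 2 libraries of a group could not be compared, no replicate error exists, and no p-value was computed. Whether a list was called on both libraries together or on 1 of them is not given in the sources used here. Differences between lists are described beside the same quantity over all regions, and each 95% interval (Wilson for percentages) covers counting error only. H3K27ac depth ran from 27.5 to 50.6 M tags in 7 lists and was 7.52 M in the male day 4 list, which was also the shortest list with 17339 autosomal peaks against 20355 to 121551 in the others. Tags in peaks were 7.87, 11.9, 47.3 and 25.9% of all tags in female vehicle and days 4, 6 and 8. In the male lists they were 18.5, 10.3, 5.39 and 6.04%. Tags per kb of single regions below are scaled to depth only, so differences between whole lists remain in them. As a check of the labelled cell type, 8 of 12 myofiber marker genes had a peak within 1 kb of a start in 7 or 8 lists, including Ckm, Mylpf, Tnnt3, Tnni2 and Ryr1 in all 8. Of 29 markers of satellite, fibroblast, endothelial, mural, immune, Schwann and fat cells, the median marker had a start peak in 2 lists. The endothelial marker Pecam1 was the nearest gene of 1 of the 723 regions, and none of the other markers of these cells was. Whether regions from these cells are among the 723 was not tested further, and in bulk myofibers fewer cells of a type and less acetylation per cell cannot be told apart.

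The members were chosen by the peak calls themselves (fold over input, position and presence in each list), so the presence of a peak in each list is not a finding. The weakest of the 8 folds over input of a region (the highest peak of each list) had a median of 3.89 and ran from 2.09 to 11.7. At the 1 kb limit, the regions nearest to Glyctk and Tbx2 were just inside, with edges 1005 and 1018 bp from a start and a weakest fold of 3.98 at both. The regions nearest to Zmiz2 and Ezh1 were just outside, at 984 and 972 bp with weakest folds of 3.06 and 3.28.

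The reference sequence of 6 constant distal regions is shown because these regions carry the results that follow. Each is a 300-base window of the plus strand of GRCm38.p6 (mm10), centered on the middle of the bases that lay under a peak in all 8 lists. Capitals mark matches on either strand to motifs of factors at work in muscle and at promoters. The Ppara window (chr15:85669948-85670247) was in the region with the highest weakest fold outside the 2 regions of high input described last, and had CCAAT and the TEAD motif CATTCC. The Bicral window (chr17:46856596-46856895), 71.7% GC, held the GC box GGGCGG at 2 places. The Zbtb16 window (chr9:48738853-48739152) was in the widest region and held a wide form of the MEF2 motif that overlapped the motif TCAGGTT (MEF3) of Six-family factors. The Des window (chr1:75343962-75344261) held a motif of the estrogen-related receptors (ERR), CATTCC and CCAAT. The Cebpd window (chr16:15948430-15948729) held GGGCGG and the E-box CAGCTG of myogenic factors. The Fam219a window (chr4:41556702-41557001) was 1 of 10 with the narrow MEF2 motif and was chosen after its values were seen.
Ppara: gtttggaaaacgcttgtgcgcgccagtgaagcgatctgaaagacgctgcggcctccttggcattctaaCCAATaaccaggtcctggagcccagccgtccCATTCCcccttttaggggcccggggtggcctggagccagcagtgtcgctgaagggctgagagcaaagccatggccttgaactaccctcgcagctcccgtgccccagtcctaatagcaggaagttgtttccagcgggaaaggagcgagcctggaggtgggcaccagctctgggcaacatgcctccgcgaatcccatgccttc
Bicral: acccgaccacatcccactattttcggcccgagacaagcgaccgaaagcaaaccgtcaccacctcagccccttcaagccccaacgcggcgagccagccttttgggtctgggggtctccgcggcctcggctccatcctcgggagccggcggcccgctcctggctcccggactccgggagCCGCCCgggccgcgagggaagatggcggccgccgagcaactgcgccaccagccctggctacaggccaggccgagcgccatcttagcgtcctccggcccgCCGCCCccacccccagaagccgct
Zbtb16: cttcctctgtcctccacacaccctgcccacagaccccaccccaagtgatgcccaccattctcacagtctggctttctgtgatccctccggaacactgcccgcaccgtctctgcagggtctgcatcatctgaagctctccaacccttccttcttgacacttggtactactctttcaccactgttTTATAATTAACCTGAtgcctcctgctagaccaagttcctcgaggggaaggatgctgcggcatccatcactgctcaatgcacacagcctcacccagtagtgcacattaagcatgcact
Des: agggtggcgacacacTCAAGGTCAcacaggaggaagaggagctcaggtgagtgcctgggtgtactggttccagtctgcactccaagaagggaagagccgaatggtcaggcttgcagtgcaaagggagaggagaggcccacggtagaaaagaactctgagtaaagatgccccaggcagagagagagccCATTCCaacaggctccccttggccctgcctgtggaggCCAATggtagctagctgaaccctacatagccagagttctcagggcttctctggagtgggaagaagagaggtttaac
Cebpd: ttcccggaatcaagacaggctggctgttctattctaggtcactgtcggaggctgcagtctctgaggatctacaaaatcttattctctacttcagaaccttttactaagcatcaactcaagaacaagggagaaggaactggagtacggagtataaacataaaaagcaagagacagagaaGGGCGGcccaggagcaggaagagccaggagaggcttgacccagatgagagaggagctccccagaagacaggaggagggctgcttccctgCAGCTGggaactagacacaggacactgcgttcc
Fam219a: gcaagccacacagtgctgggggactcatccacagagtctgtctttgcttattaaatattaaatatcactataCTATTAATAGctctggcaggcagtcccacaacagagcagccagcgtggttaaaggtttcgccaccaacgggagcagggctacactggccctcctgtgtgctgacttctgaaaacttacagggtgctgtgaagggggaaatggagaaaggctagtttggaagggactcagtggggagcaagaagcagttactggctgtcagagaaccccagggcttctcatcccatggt

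Distal regions became a smaller share the more lists held a region. Of regions in 1 list, 97.2% were distal (interval 97.2 to 97.3%), and of regions in 7 lists 37.8% (36.1 to 39.5%). Of the 4220 regions in all 8 lists, 17.1% were distal (16 to 18.3%). Merged regions held by every list therefore mostly touched a start or lay within 1 kb of one, and the 723 regions are the distal remainder. Regions merged from more lists are wider and reach a start more easily, so the fall is in part set by the rule. The count rested on the shortest list: of 1164 distal regions in 7 lists, 697 (59.9%) lacked only the male day 4 peak, 197 lacked male day 8, 125 female vehicle and 122 male day 6, while female day 8 was the missing list for 0. With the male day 4 list not required, 1421 distal regions met the rule.

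**Figure D1:**
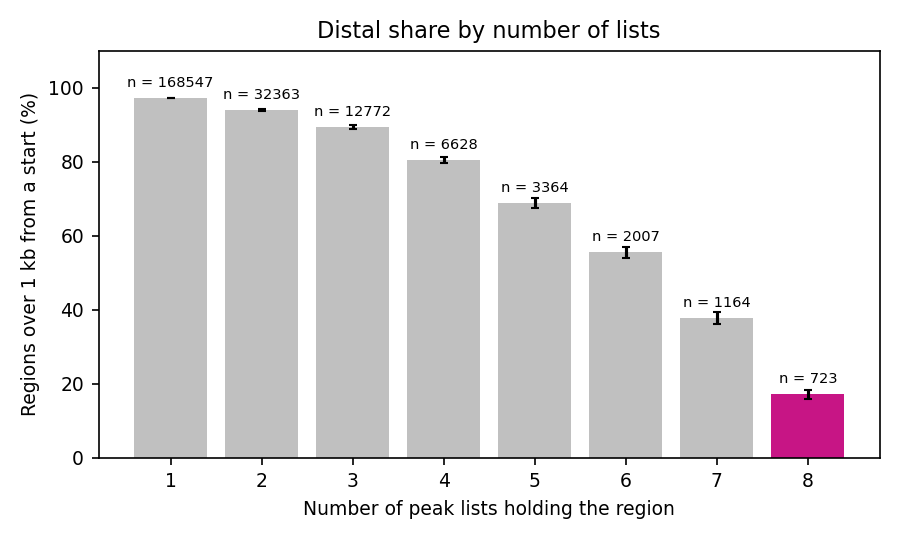
Share of merged autosomal regions that lay over 1 kb from every curated transcription start (y axis, percent, 95% Wilson intervals as error bars) against the number of peak lists holding the region (x axis). The number of distal regions is above each bar, and the share falls from 97.2% in 1 list to 17.1% in 8 lists, the purple bar of 723 constant distal regions.

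The same bases were not always called in every list. In 330 of the 723 regions (45.6%, interval 42.0 to 49.3%) at least 1 base lay under a peak of all 8 lists, called the common core here, compared with 2624 of 3497 constant promoters (75%, 73.6 to 76.4%). In the other 393 regions, different lists had peaks at different places along 1 merged stretch, and the most lists over any base was 7 in 262 regions, 6 in 100, 5 in 28 and 4 in 3. Where a core existed it had a median length of 431.5 bp, and 36 cores were over 1 kb. The 5 longest cores were nearest to Hoxc6, a homeobox gene of body patterning, with 3070 bp, to Ski, a repressor of TGF-β signaling with a known role in muscle growth, with 2512 bp, to the biotinidase gene Btd with 2415 bp, to Cuedc1 with 2054 bp and to the tyrosine phosphatase gene Ptpn1 with 1819 bp.

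Constant distal regions were broad. The median width was 6.92 kb (interquartile range 4.36 to 10.3 kb), 45 regions were over 20 kb, and the widest was 80.9 kb. Constant promoters had a median of 4.24 kb, distal regions in 7 lists 4.92 kb, and distal regions in 1 list 0.501 kb, the shortest called length. A region merged from more lists can only be as wide or wider, so width is in part set by the rule. Regions without a common core were wider (median 7.47 kb) than those with one (5.95 kb).

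By position, 392 regions (54.2%, interval 50.6 to 57.8%) were in introns, 295 (40.8%) were intergenic, 25 in exons and 11 at transcription ends, judged at the middle of the core or, without a core, of the region. Distal regions in 7 lists were in introns in 64.3% (61.5 to 67.0%) and distal regions in 1 to 7 lists in 51.9%. Among regions with a core the intron share was 42.7%. The nearest edge lay a median of 18.7 kb from a curated start, with 91 regions at 1 to 5 kb, 111 at 5 to 10 kb, 399 at 10 to 50 kb, 85 at 50 to 100 kb and 37 farther away. Of the 723, 326 lay within the body of their nearest protein-coding gene.

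Some of these regions may hold starts that the curated annotation leaves out. A predicted RefSeq start or a GENCODE M21 start was inside or within 1 kb of 318 regions (44.0%, interval 40.4 to 47.6%), compared with 31.3% of distal regions in 7 lists and 11.6% of distal regions in 1 to 7 lists, which are narrower. The regions of Bicral and Myoz1 were such cases, with window middles 1291 and 145 bp from an uncurated start. The label "enhancer" thus fits the annotation best for the 405 regions with no start of any of these sets, and the term constant distal region is used here for all 723.

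Ranked by the weakest list, and with the 2 regions of very high input set aside (1 of them, nearest to Lrrc4c, holds the 11.7), the strongest region was 65.5 kb from the start of Ppara (chr15:85660458-85696891, 36.4 kb, intergenic). Ppara encodes PPARα, the nuclear receptor that turns on fatty acid oxidation genes. Its fold over input was 40.9 in female vehicle, 14.5 at female day 4, 19.1 at day 6 and 17.4 at day 8, and 10.2 in male vehicle, 20.8 at male day 4, 12.7 at day 6 and 13.5 at day 8. Female vehicle was highest and male vehicle lowest, so the weekly groups lay between the vehicle groups of the 2 sexes. Tags per kb under peaks, scaled to 10 M tags, were 18.9, 16.8, 50.5 and 26.0 in the female lists and 26.7, 29.8, 15.5 and 18.4 in the male lists in the same order, so the order of the lists differed between the measures.

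The next regions by weakest fold were nearest to St3gal1 (a sialyltransferase, 7.47), Bicral (a subunit of a SWI/SNF-type chromatin remodeling complex, 7.21), Svil (supervillin, an actin-binding protein of muscle membranes, 7.05), Zbtb16 (7.01), Itgb5 (the integrin β5 chain, 6.70), Klf14 (a Krüppel-like transcription factor, 6.63) and Chd2 (a chromatin remodeler, 6.61). At Bicral, the fold was 13.6, 9.81, 28.4 and 15.8 in female vehicle and days 4, 6 and 8, and 9.44, 37.0, 7.21 and 10.9 in the male lists. All but the Itgb5 region had a common core.

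Zbtb16 encodes PLZF, a zinc finger repressor and a classic glucocorticoid-induced gene. Its region (chr9:48705150-48786035) spanned 80.9 kb within the gene, the widest of all, with its middle in an intron. Peaks covered 28.1 kb of it in female vehicle, then 65.4, 75.3 and 80.1 kb at female days 4, 6 and 8. In males they covered 50.7 kb in vehicle, then 11.7, 36.0 and 16.7 kb at days 4, 6 and 8. The covered length was thus higher than vehicle in every weekly female list and lower in every weekly male list. The median coverage of all 723 regions moved the same way, so the pattern was not particular to Zbtb16. That median was 24.2% in female vehicle and 67.4, 88.2 and 88.4% at female days 4, 6 and 8. In males it was 43.3% in vehicle and 13.0, 29.2 and 19.3% at days 4, 6 and 8. Tags per kb at Zbtb16 moved less: 18.2, 19.5, 41.5 and 38.3 in the female lists and 29.8, 28.0, 16.4 and 18.0 in the male lists.

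**Figure D2:**
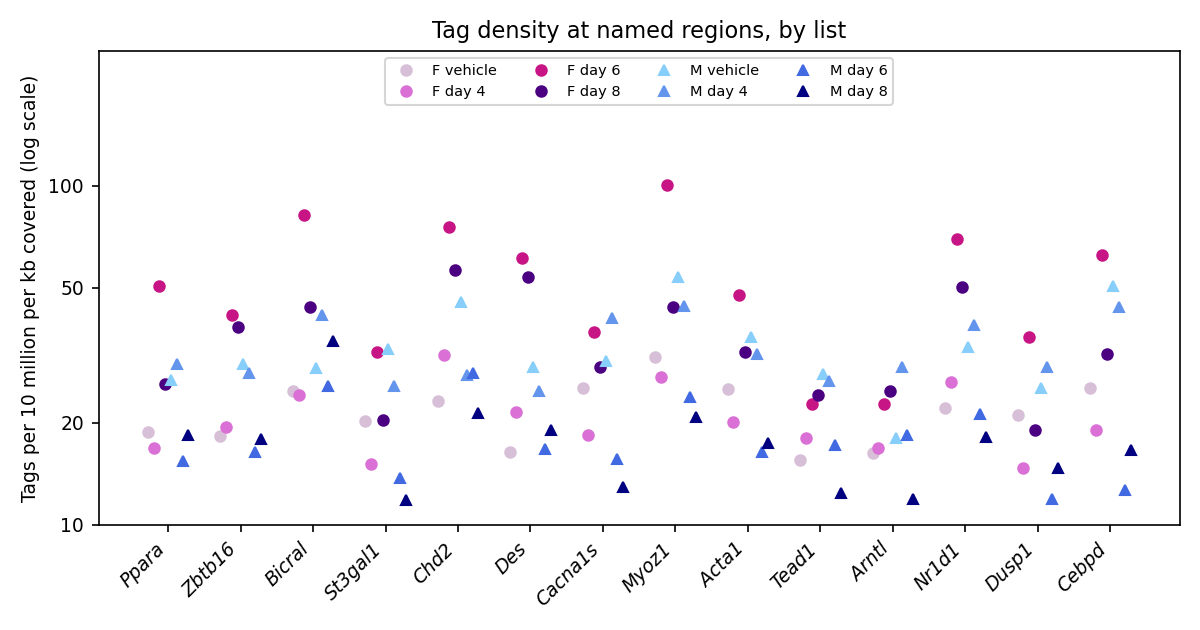
H3K27ac tags per 10 M per kb covered by peaks (y axis, log scale) in each of the 8 lists (points, F female circles, M male triangles) for 14 named constant distal regions, the region with the highest weakest fold for each gene on the x axis. Female day 6 is the highest point at Ppara, Zbtb16, Bicral, Chd2, Des and Myoz1, and male days 6 and 8 are among the lowest at most genes.

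Genes of the contractile apparatus had constant distal regions at 10 of 41 listed sarcomere and Z-disc genes, with 13 regions. Acta1, Ankrd2, Cap2, Des, Myh2, Myom2, Myoz1, Myoz2 and Neb were among them. For scale, 631 of 20021 autosomal protein-coding genes (3.15%) were the nearest gene of any constant distal region, and over all 13 gene lists 50 of 283 genes (17.7%) were. Troponin and tropomyosin genes contributed Tmod1 and Tpm1 (2 of 13), and excitation-contraction calcium genes contributed Cacna1s, Camk2a, Camk2g and Jph1 (4 of 25). The lists were put together with muscle in mind, so these counts describe the genes on them.

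At Des, the gene of the muscle intermediate filament desmin, the region lay 16.2 kb from the start (chr1:75343191-75348557). Tags per kb were 16.4, 21.5, 61.2 and 53.8 in female vehicle and at days 4, 6 and 8, and 29.3, 24.9, 16.7 and 19.1 in the male lists. Female days 6 and 8 stood above the 6 other lists. The Acta1 region (skeletal α-actin, 11.9 kb from the start, chr8:123878434-123887115) had 25.1, 20.2, 47.5 and 32.3 tags per kb in the female lists and 35.9, 31.9, 16.4 and 17.5 in the male lists. Female day 6 was again the highest and male day 6 the lowest. The same lists had the highest and lowest share of tags in peaks (47.3 and 5.39%), and its part in these values was not tested.

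The Myoz1 region, a short one of 2.39 kb near the gene of the Z-disc protein calsarcin-2, reached 100.6 tags per kb at female day 6, with 31.2, 27.2 and 44.0 in the other female lists and 53.8, 44.3, 23.8 and 20.9 in the male lists. Cacna1s, the voltage sensor of the transverse tubule, had its region within its own introns (chr1:136057155-136073873, 16.7 kb), with 25.4, 18.4, 37.1 and 29.2 tags per kb in the female lists and 30.4, 40.7, 15.7 and 12.9 in the male lists. Here male day 4 was highest, from 2.32 kb of covered length against 16.4 kb at female days 6 and 8. All 3 Cap2 regions, near the gene of an actin-cycling protein of the sarcomere, lay within the gene and had no common core.

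Among 26 myogenic transcription factor genes, 5 were nearest to a region, Klf4, Mafa, Myod1 and Tead1 among them. The Myod1 region (chr7:46351875-46355165), 22.8 kb from the start of the gene of the master regulator of the muscle lineage, had a common core of only 1 bp and a weakest fold of 2.70. Its tags per kb ranged from 14.9 at male day 6 to 45.4 at female day 6. The Tead1 region, in an intron of the gene of a TEAD factor, had tags per kb from 12.4 at male day 8 to 27.8 in male vehicle, a narrower range.

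Glucocorticoid receptor targets and metabolism genes had regions at 7 of 20 genes: Cebpb, Cebpd, Ddit4, Dusp1, Foxo1, Klf9 and Zbtb16. Each is known to be induced by glucocorticoids in at least some tissues, and the regions were present in both vehicle lists by the rule. Of the 8 regions, 3 had a common core and 6 were intergenic. The 2 regions nearest to Dusp1, a phosphatase that turns off MAP kinases, flanked it at 19.5 and 24.4 kb. The first had 20.3, 24.1, 59.3 and 47.1 tags per kb in the female lists and 28.5, 30.5, 20.3 and 16.2 in the male lists. The Cebpd region, 61.3 kb from the start of this bZIP factor gene and inside an intron of Spidr, had 25.3, 19.1, 62.3 and 32.0 in the female lists and 50.7, 43.8, 12.7 and 16.6 in the male lists. The second Dusp1 region had 21.1, 14.7, 35.8 and 19.0 in the female lists and 25.3, 29.1, 11.9 and 14.7 in the male lists. In all 3 regions female day 6 was the highest of the 8 lists, as in 503 of the 723 regions.

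Mitochondrial and nuclear receptor regulators had regions at 5 of 19 genes, among them Ppara, Ppargc1b, Rxra and Nr4a1. Ppargc1b, the coactivator PGC-1β, held 3 regions in its introns, and Rxra, the shared partner of many nuclear receptors, held 1 of 37.9 kb. The 8 regions were wide, with a median of 16.0 kb against 6.92 kb over all 723. Fatty acid genes contributed Acacb and Acsl1 (2 of 21), and 4 of 23 glucose and glycogen genes had a region, Gyg, Ldha and Pgm1 among them. Of the 19 listed IGF1, PI3K and Akt genes, 0 were nearest to a region.

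Clock genes with a region were Arntl, Bhlhe40 and Nr1d1 (3 of 19). Arntl (BMAL1) activates and Nr1d1 (REV-ERBα) represses transcription in the feedback loop of the clock. The Nr1d1 region (chr11:98780328-98790106), 7.85 kb from the start, had 22.2, 26.3, 69.5 and 50.3 tags per kb in the female lists and 33.6, 38.9, 21.2 and 18.1 in the male lists. The Arntl region, in its own intron, had 16.3, 16.9, 22.7 and 24.8 in the female lists and 18.0, 29.1, 18.4 and 11.9 in the male lists, so it spread less. Dystrophin complex and membrane genes contributed Ank3, Dysf and Utrn (3 of 31) and matrix genes Col4a1, Col4a2 and Col6a2 (3 of 15). In addition, 2 of 12 housekeeping genes had a region, Actb among them. The Col4a1 region, 33.6 kb wide, lay in an intron of the adjoining Col4a2.

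Most genes had a single region: 555 of the 631 nearest genes had 1, 63 had 2 and 13 had 3 or more. Chd2 had 5 regions, from 22.1 to 75.8 kb from its start, and Irf2bpl, a transcriptional coregulator, had 4. The other 11 genes had 3 each: Arhgap31, Cap2, Fos, Foxn3, Irf2bp2, Klf14, Ppargc1b, Rreb1, Svil, Tacc2 and Tns1. All 3 regions of Fos, the AP-1 subunit induced by activity and stress, and all 4 of Irf2bpl had a common core. The Tns1 regions, in introns of the gene of tensin 1, which links actin to integrins, summed to 124.4 kb, the largest total of the 13. Of 704 gaps between neighboring regions on the same chromosome, 107 were under 50 kb and the median was 1147 kb.

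Promoters of the nearest genes were often constant too. Of the 631 genes, 285 (45.2%, interval 41.3 to 49.1%) had a start within 1 kb of a merged region that held a peak of all 8 lists, compared with 20.2% of all autosomal protein-coding genes (19.6 to 20.7%). For genes nearest to distal regions in 7 lists the share was 44.1% (41.0 to 47.3%), and the 2 intervals overlap. Counted by the peaks themselves, 252 of the 631 (39.9%, 36.2 to 43.8%) had a peak within 1 kb of a start in each of the 8 lists, against 17.3% of all genes (16.8 to 17.8%) and 38.0% (35.0 to 41.1%) of those nearest to distal regions in 7 lists. Only 28 of the 631 genes (4.44%) had no start peak in any list, against 23.2% of all genes. Depth and the share of tags in peaks differed between lists, and their part in these shares was not tested.

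In sequence, the 300-base windows of constant distal regions stood close to other distal regions and far from promoters. Windows lay at the middle of the common core. Without a core, and for all regions in 1 to 7 lists, they lay at the middle of the merged region. Median GC content was 50.7%, against 49.0% in distal regions of 1 to 7 lists and 61.3% in constant promoters. The ratio of observed to expected CpG was 0.222 in the median window, compared with 0.188 and 0.723. The GC box GGGCGG, a site of SP and KLF factors, was in 12.9% of windows (interval 10.6 to 15.5%), 5.11% of distal windows of 1 to 7 lists, 8.51% of those in 7 lists (7.04 to 10.2%) and 44.2% of constant promoters. It was in 20% of regions with a core (interval 16 to 24.6%) and 6.87% of those without (4.76 to 9.81%), whose windows were placed differently. Regions whose window middle was within 1 kb of an uncurated start had it in 23.0% (17.0 to 30.3%) and the other 571 in 10.2% (7.94 to 12.9%). After the data were seen, all windows were also placed on the longest run of bases under the most lists. The GC box was then in 13.1% (10.9 to 15.8%) of constant distal regions, against 9.02% (7.51 to 10.8%) of distal regions in 7 lists.

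Among motifs of muscle and glucocorticoid factors, narrow MEF2 matches were more frequent than in other distal regions by their intervals, CATTCC was less frequent, and the E-box and GR motifs were within counting error. The narrow MEF2 motif (CTA, then 4 bases of A or T, then TAG) was in 10 of 723 windows (1.38%, interval 0.753 to 2.53%), 0.518% of distal windows of 1 to 7 lists (0.489 to 0.548%) and 0.572% of constant promoters. It was in 1.98% (1.32 to 2.95%) of distal windows in 7 lists, an interval that overlaps that of the constant regions. The wide MEF2 form was in 3.73%, against 3.42% of distal windows of 1 to 7 lists. CAGCTG was in 21.9% (19 to 25%), against 19.1%, and the GR palindrome ACANNNTGT in 9.82% (7.86 to 12.2%), against 9.54%. Shares of the AP-1 motif TGANTCA were 9.68% and 9.17%, of the MEF3 motif 4.56% and 4.87%, and of the ERR motif 0.968% and 0.806%. CATTCC was in 13.7% (11.4 to 16.4%), against 16.8%, and CCAAT in 27.2% (24.1 to 30.6%), against 32.9%. In distal windows of 7 lists CATTCC was in 16.6% (14.6 to 18.8%), an interval that overlaps that of the constant regions. With windows placed on the longest run of bases under the most lists, a choice made after seeing the data, MEF2 was in 0.830% (0.381 to 1.80%) and CAGCTG in 25.6% (22.5 to 28.9%) of constant distal regions, against 0.498% (0.470 to 0.528%) and 19.5% (19.3 to 19.7%). With that placement the intervals were apart from those of 1 to 7 lists for the E-box. They were no longer apart for MEF2 or for CATTCC, which was in 15.4% (12.9 to 18.2%), against 16.7%. Distal regions in 7 lists had the E-box in 22.8% (20.4 to 25.3%), an interval that overlaps that of the constant regions. It was in 18.0% of distal regions in 1 list and in 22.8 to 24.9% of those in 2 to 7 lists. The E-box share thus did not set constant regions apart from distal regions in 7 lists.

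**Figure D3:**
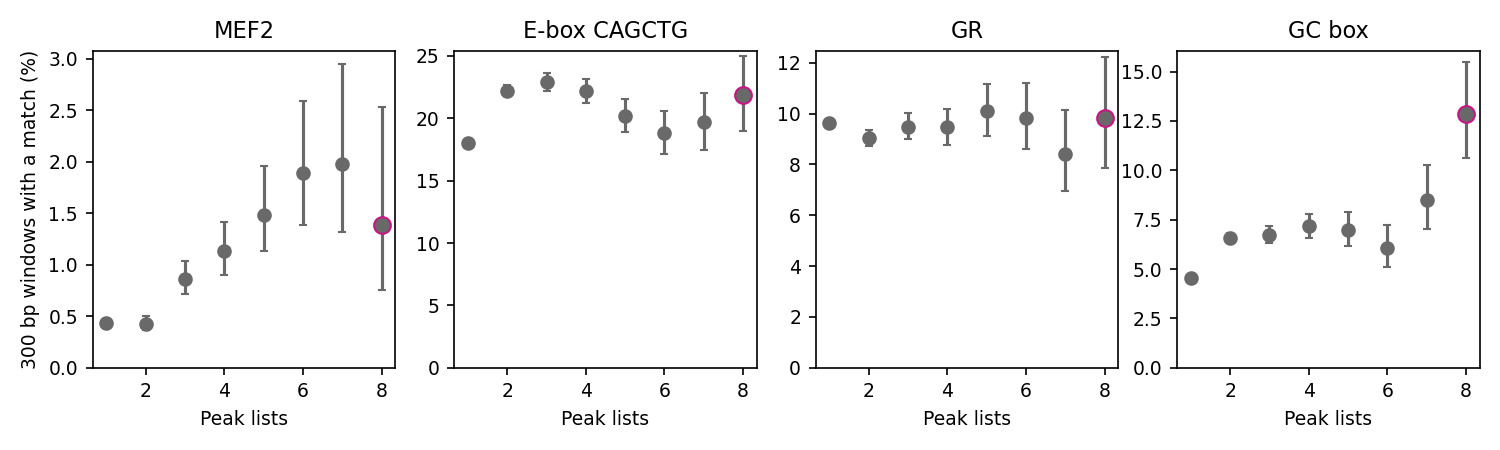
Percent of 300-base windows of distal regions with a match to the narrow MEF2 motif, the E-box CAGCTG, the GR palindrome or the GC box (y axes, from 0, 95% Wilson intervals) against the number of lists holding the region (x axes, purple rim for the 723 constant distal regions). MEF2 matches are in 0.438% of windows in 1 list and 1.98% in 7 lists, and the GC box is at 12.9% in 8 lists against 8.51% in 7 lists. Windows lie at the middle of the common core where there is one and otherwise at the middle of the merged region.

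**Figure D4:**
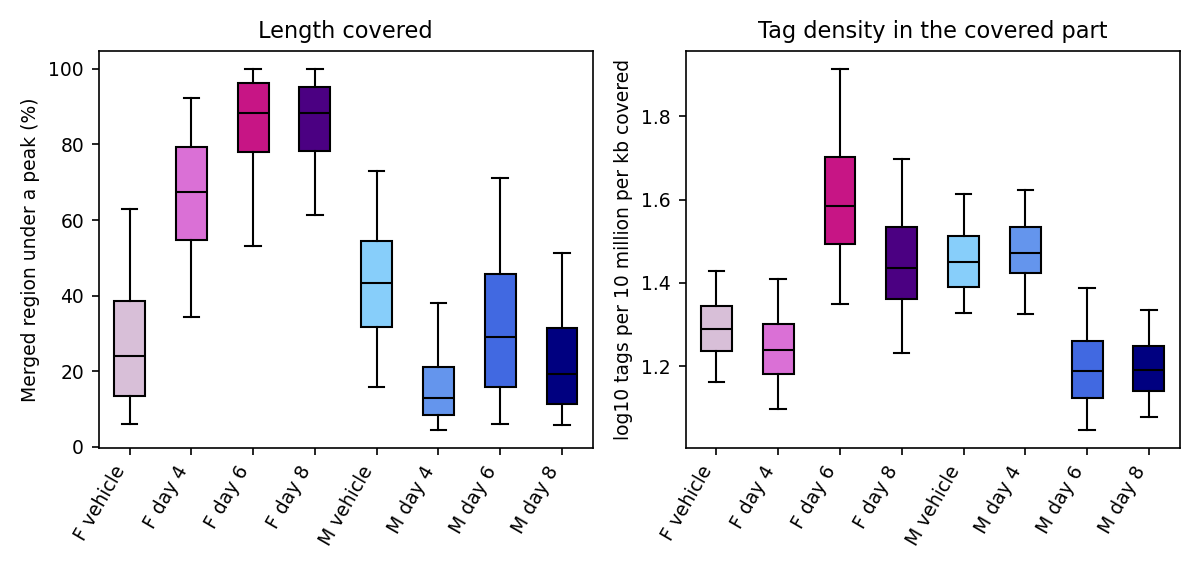
Percent of each merged region under a peak (left) and log10 tags per 10 M per kb covered (right, without the 2 regions of very high input) for the constant distal regions in each list (F female, M male). Boxes show quartiles with the median line and whiskers the 5th and 95th percentiles, with median coverage from 13.0% in male day 4 to 88.4% in female day 8.

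Across the lists, what varied most was how much of a region was called. Peaks covered a median of 24.2% of the merged region in female vehicle and 67.4, 88.2 and 88.4% at female days 4, 6 and 8. In males the medians were 43.3% in vehicle and 13.0, 29.2 and 19.3% at days 4, 6 and 8. In the male day 4 list, 261 of the 723 regions were covered only by the shortest called length, and the median region held 19 tags, against 66 to 725 in the other lists. Median density under the peaks ran from 15.5 tags per kb (male days 6 and 8) to 38.5 (female day 6). Within a region, the highest list was a median of 2.95 times the lowest by tags per kb and 15.5 times by summed tags. In 16 regions the density stayed within 2-fold over all 8 lists.

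Female day 6 had the highest density in 503 regions, male day 4 in 135, male vehicle in 59 and female day 8 in 23. The lowest density was at male day 6 in 283 regions and at male day 8 in 278. The order of the 723 regions by tags per kb was shared to differing degrees between pairs of lists, with Spearman's rho from 0.086 to 0.76 over 28 pairs. By fold over input rho ran from -0.22 to 0.35. These correlations are across regions, which are not independent and share libraries and depth within a list, and are given as descriptions.

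The comparison with vehicle of the same sex asks whether constant regions carried more or less H3K27ac after weekly prednisone. Tags summed over a region, centered on the median of all autosomal regions with a peak in both lists, were higher in weekly females than in vehicle at the median region and lower in weekly males. The medians on the log2 scale were 0.33, 0.37 and 0.38 at female days 4, 6 and 8 and -0.76, -0.15 and -0.51 at male days 4, 6 and 8. By fold over input the female medians turned to -0.045 at day 4 and -0.14 at day 8, and with centering on constant promoters they turned to -0.23 at day 6 and -0.058 at day 8, so the direction in females depended on the scaling. The median over all shared regions is 0 by construction, and the centering took out log2 shifts of 0.95, 2.57 and 1.99 in females and -0.77, -1.24 and -1.35 in males.

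At female day 4, 175 of the 723 regions were at least 2-fold higher than vehicle and 20 lower, beside 14.2% higher and 16.4% lower among all shared regions. At female day 6 the counts were 212 and 92 (all regions 21.1% and 27.1%), and at female day 8 they were 198 and 38 (16.5% and 21.8%). At male day 4, 25 regions were higher and 288 lower (14.4% and 16.4%), at male day 6, 91 and 178 (13.7% and 16.4%), and at male day 8, 37 and 231 (10.5% and 16.0%). In percent, 24.2 to 29.3% of constant distal regions were higher in weekly females and 24.6 to 39.8% lower in weekly males. Of constant promoters, 18.6, 32.8 and 25.3% were higher at female days 4, 6 and 8, so the female rise was not particular to distal regions. At male days 4, 6 and 8, 16.9, 13.3 and 9.58% of constant promoters were lower.

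These differences moved with the covered length. Per kb covered, the same regions were at least 2-fold higher or lower in 3 and 2 cases at female day 4 (all shared regions 1.44% and 1.51%), 45 and 17 at day 6 (14.5% and 10.8%) and 25 and 11 at day 8 (7.79% and 5.84%). In males they were 8 and 10 at day 4 (1.83% and 1.97%), 8 and 3 at day 6 (1.05% and 1.08%) and 5 and 6 at day 8 (0.811% and 1.09%). The medians per kb were 0.06, 0.12 and 0.15 in females and -0.07, 0.04 and -0.08 in males on the log2 scale. By density, then, the constant distal regions were close to the median of all shared regions in each comparison, and their share past 2-fold was near or below that of all regions. Density is counted only under called peaks, so the calling limit of each list bounds it. It therefore cannot show whether acetylation of the whole regions was unchanged. In tags per 10 M with no centering, density was higher at female days 6 and 8 and lower at male days 6 and 8, as in the median levels above.

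**Figure D5:**
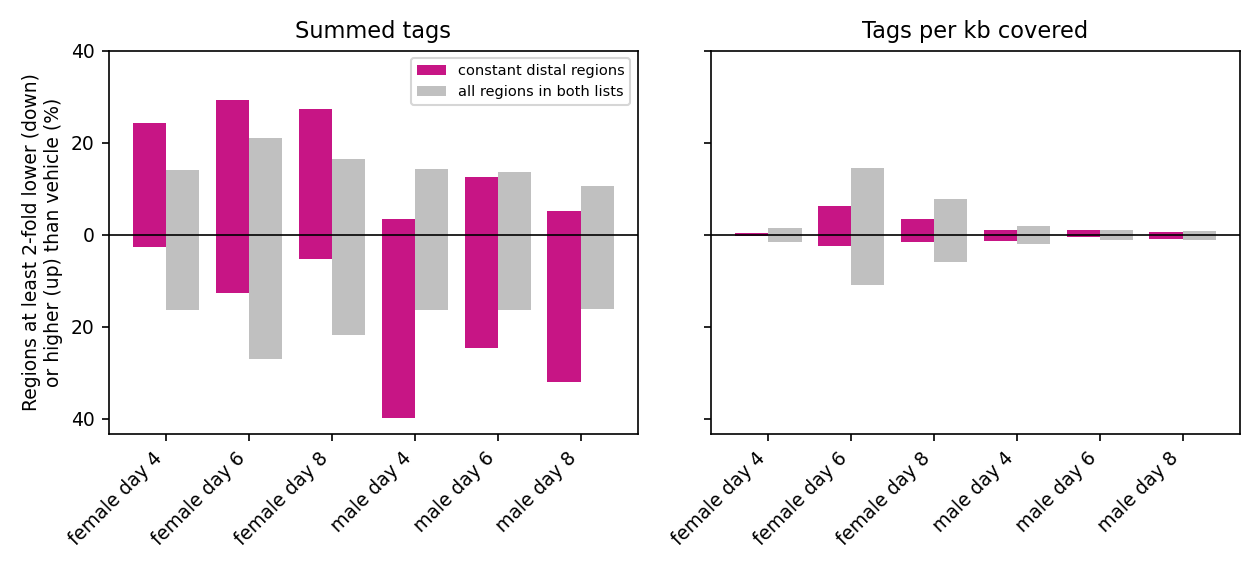
Percent of constant distal regions (purple) and of all autosomal regions with a peak in both lists (gray) that were at least 2-fold higher (bars up) or lower (bars down) than vehicle of the same sex, after centering on the median of all shared regions, for each day after the last injection. By summed tags (left) 24.2 to 29.3% of constant regions were higher in females and 24.6 to 39.8% lower in males, and by tags per kb covered (right) 6.22% at most were past 2-fold in either direction.

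Most of the single regions with the largest ratios had, in the lower list, a covered length at or near that of the shortest called peak. The Trim8 region (chr19:46474335-46488322) was the largest rise at female day 6, with 680.5 normalized tags over 13.6 kb against 6.18 over 0.501 kb in vehicle, which is 50.2 against 12.3 tags per kb and a centered log2 ratio per kb of 1.10. Trim8 encodes a ubiquitin ligase. Smox, the spermine oxidase gene, led at female day 4 with 150.9 against 5.81 normalized tags, and Aagab at female day 8 with 623 against 10.2. Their densities were 15.2 against 11.6 tags per kb at Smox and 28.4 against 20.4 at Aagab.

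In males the largest rises outside the regions of high input were at Tmcc1 at day 6, with 49.4 against 5.38 normalized tags, and at Pdp1, the pyruvate dehydrogenase phosphatase gene, at day 8, with 62.6 against 17.4. Their densities were 11.5 against 10.7 tags per kb at Tmcc1 and 16.0 against 21.9 at Pdp1. The largest falls were at Fam53b at day 4, with 18.6 against 286.3 normalized tags, at Slc25a34, a mitochondrial carrier gene, at day 6, with 5.34 against 163.5, and at Txn2, the mitochondrial thioredoxin gene, at day 8, with 5.92 against 266.3. In each of these 3 falls the weekly list covered 0.501 kb, the shortest called length. By density Fam53b was higher at day 4 than in vehicle, with 37.1 against 28.3 tags per kb, and its day 4 value rested on 14 tags. Densities were 10.7 against 29.0 at Slc25a34 and 11.8 against 24.5 at Txn2. The centered log2 ratios per kb of Fam53b, Slc25a34 and Txn2 were 0.26, -0.54 and -0.30. Among females the largest falls were at Arhgap31 at day 4 (12 against 33.8 normalized tags) and Zfyve9 at day 6 (6.20 against 56.7).

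By density the largest rises in females were at Rpl12 at day 4, with 36.1 against 17.1 tags per kb, Slx4 at day 6, with 123.6 against 15.2, and Spag6 at day 8, with 68.5 against 16.3. The largest falls in males were at Fth1, the ferritin heavy chain gene, at day 4, with 16.7 against 38.5, Stard10 at day 6, with 18.0 against 72.9, and Auh at day 8, with 13.1 against 53.8. These densities are not centered. The centered log2 ratios per kb were 1.30, 2.10 and 1.70 at the rises and -1.34, -1.11 and -1.28 at the falls. By centered summed tags Stard10 was higher than vehicle (fold 1.28), with peaks over 2.37 against 1.08 kb. At Slx4, whose region is 1112 bp from a curated start, the vehicle value rested on 21 tags. At Fth1 the day 4 value rested on 8 tags.

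By gene group, summed tags were at least 2-fold higher than female vehicle at 6 of the 8 mitochondrial and nuclear receptor regulator regions at day 4, 5 at day 6 and 6 at day 8, beside 24.2, 29.3 and 27.4% of all 723 and 14.2, 21.1 and 16.5% of all shared regions. Their median log2 ratios were 1.44, 1.43 and 1.57 by summed tags and 0.01, 0.05 and 0.03 per kb covered. In males, 2, 4 and 3 of these 8 were at least 2-fold lower at days 4, 6 and 8, with medians of -0.50, -1.35 and -0.57. Of the 8 glucocorticoid target regions, 7 were at least 2-fold lower by summed tags at male day 4, 3 at day 6 and 1 at day 8, beside 39.8, 24.6 and 32.0% of all 723 and 16.4, 16.4 and 16.0% of all shared regions. Per kb covered the counts were 0, 1 and 0. The 13 sarcomere and Z-disc regions had median ratios of 0.09, -0.50 and 0.28 in females by summed tags. With 1 list per group and 8 to 13 regions per gene group, these are descriptions.

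Of the 723 regions, 2 had an input density over 5 times the median of all members in every list. They lay at chr2:98665905-98667731 (nearest gene Lrrc4c) and chr14:19417324-19419976 (nearest gene Gm2237), in sequence that is nearly all repeat. H3K27ac density at the first was 51411 to 334390 tags per kb. They gave the largest fall by summed tags at female day 8 and the largest rise at male day 4 (both Gm2237), and by density the largest falls at female days 4 and 8 and the largest rises in all 3 male comparisons (all Lrrc4c). With these 2 regions the constant distal regions held 8.79 to 55.2% of the peak tags of a list, and without them 2.74 to 6.09%. They were kept among the 723 because the rule keeps them, and the counts against vehicle without them differ by at most 2.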

How the data were processed

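H3K27ac ChIP-Seq of 8 groups was analysed from 8 peak lists, 1 per group. Reads were trimmed by the authors with homerTools, aligned to mm10 with Bowtie2 (2.2.6 in the submitters' processing notes) and searched for peaks by HOMER findPeaks in histone mode, with the input libraries as control and a minimum fold of 2. TopHat2 2.1.0 is also in the notes, with no role given, and how the 2 libraries of a group entered its list is not given in the sources used here. Normalized tags, the deposited signal, are tags per 10 M. Tag counts per peak were deposited as counted in the female day 6 and male day 4 lists and scaled to input depth in the other 6, where counts were recovered from the normalized tags. The deposited input signal and fold ratio over input were taken unchanged, and the deposited findPeaks score served only to rank peaks within a list. The deposited p-value columns, the authors' own comparison with input, were not used.

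Depth was recovered from the deposited tags (99.9 to 100% of low values whole within 0.25 tags). Peaks were assigned to groups by the sex, treatment and day in the list names. Merging, distances to the starts of 45756 curated transcripts of GRCm38.p6, HOMER-style classes, nearest genes (20021 autosomal protein-coding) and motif scans were run in Python 3.11.15 with pandas 2.3.3 and pysam 0.24.0, and merging was checked on simulated lists against bedtools 2.31.1. A region's value in a list was the sum of its peaks' normalized tags, also given per kb covered. Ratios to vehicle of the same sex were centered on the median over all autosomal regions with a peak in both lists. The members and gene lists were chosen with earlier results of these data known. Named regions were the 8 with the highest weakest fold over input (high-input regions apart), genes with 3 or more regions, the 5 longest cores, regions of listed genes, the largest ratio of each comparison and direction, and those at the 1 kb limit. Alternatives were core overlap, distances, annotation, list length, fold, left-out lists, scaling, window and motif form. Sequences are from RefSeq GRCm38.p6. Some genes of the lists are counted but not reported by name here.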

Additional observations from a re-analysis of the deposited data

Results flagged for a closer look

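The median log2 ratio of summed tags at the constant distal regions was above vehicle in the 3 female comparisons and below it in the 3 male comparisons, and the difference between the sexes was not tested. It was 0.33 at female day 4, 0.37 at female day 6 and 0.38 at female day 8, and -0.76, -0.15 and -0.51 at male days 4, 6 and 8. The sign in females turned by fold over input at day 4 (-0.045) and day 8 (-0.14), and with centering on constant promoters at day 6 (-0.23) and day 8 (-0.058). The 3 comparisons of a sex share 1 vehicle list. Covered length moved the same way, and per kb covered the medians lay between -0.08 and 0.15. The part of depth and of the peak calling limit in each list was not tested.

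The input libraries served as control for the peak calls and for folds over input, and their density entered none of the ratios of tags to vehicle. They showed 2 regions with an input density over 5 times the member median in all 8 lists. They were nearest to Lrrc4c and Gm2237.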

How the results depend on the processing

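The number of constant distal regions was 723. It was 330 with at least 1 base under all 8 lists, 88 with lists of equal length (17339 peaks), 328 with a fold over input of at least 4, 1421 with the male day 4 list not required, and 405 with GENCODE and predicted starts added, a choice made after seeing the data. The intron share was 42.7% with a core required. The MEF2 share was 3.73% with the wide form. Of 117 values recomputed, 60 stayed within their limits.

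Counts at least 2-fold higher and lower than vehicle depended on the scaling. Per kb covered they were 3 and 2, 45 and 17, 25 and 11 at female days 4, 6 and 8, and 8 and 10, 8 and 3, 5 and 6 at male days 4, 6 and 8. Not centered they were 469 and 5, 678 and 3, 685 and 2, and 8 and 508, 16 and 472, 4 and 621. Centered on constant promoters, 52 were lower at female day 4, 112 were higher and 197 lower at day 6, and 114 and 97 at day 8. By fold over input, 110 were higher and 145 lower at female day 4, 154 lower at day 8, 61 and 103 at male day 4, 69 lower at male day 6, and 75 and 74 at male day 8. The median log2 ratio turned to -0.045 at female day 4 and -0.14 at female day 8 by fold over input, to -0.23 at female day 6 and -0.058 at female day 8 when centered on promoters, and to 0.041 at male day 6 per kb covered. The cause was not tested. The male day 4 list rests on 7.52 M tags, so absence of a peak there means not detected at this depth.

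No paired analysis was possible because there is 1 deposited list per group and it carries no replicate number.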
